A study of Mus musculus with 8 samples.

Results

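The genes described here are 10 members of the programme by which endocardium becomes endocardial cushion mesenchyme: Tgfb2, Tgfbr3, Nfatc1, Snai1, Snai2, Twist1, Sox9, Msx1, Msx2 and Postn. They were chosen by name for their known roles in the cushions, with earlier results of these data known, and were found by symbol among the 49315 genes of each count table, where all 10 passed the filter on low counts that left 17163 genes to test. Whole hearts had been dissected from mouse embryos at embryonic day 9.5, and poly-A RNA was sequenced in 4 wild-type (WT) libraries and 4 libraries of Tbx20EH1Mut embryos, each made from 3 pooled hearts. Tbx20 is a T-box transcription factor of the heart, and the mutant embryos were homozygous for a pair of amino acid substitutions in its engrailed homology 1 domain, through which it binds the TLE family of corepressors. The allele was made by Cas9 editing of embryos from C57BL/6J oocytes, which had been fertilised by a male heterozygous for an Avi-tagged Tbx20 allele. The study describes a founder male in which the change lay on an untagged copy, and lines were bred to C57BL/6J and back-crossed. The change was constitutive, so every cell of the embryo carried it, and the sex of the pooled embryos was not analysed here.

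Endocardial cushions are the forerunners of the heart valves and septa. Myocardium of the atrioventricular canal and outflow tract secretes BMP and TGFβ ligands, and the facing endocardial cells lose their junctions, invade the matrix between the layers and become mesenchyme, a process called epithelial to mesenchymal transition (EMT). Snail and Twist family factors carry out the switch in the invading cells, Msx factors act downstream of BMP, NFATc1 stays in the cells that remain endocardial, and Sox9 and periostin belong to the mesenchyme that results. In bulk tissue such as whole hearts, fewer cells of a type and less RNA per cell cannot be told apart.

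The libraries held 33359322 to 49523086 counts in WT and 36250675 to 38357025 in Tbx20EH1Mut, and each differed from the others of its genotype by more than counting noise. Levels are given as CPM, counts relative to library size scaled by TMM, and single libraries held between 23 counts (Postn) and 5764 counts (Tgfb2) of a cushion gene. Tbx20 itself, whose message the substitutions do not remove, stood at 353 to 380 CPM in WT and 215 to 317 CPM in the mutant libraries (log2 fold change -0.46 ± 0.13 (SE), adjusted p = 0.0273), so its level does not check the labels. That call was lost in 4 of the 8 fits that left out a library (adjusted p up to 0.0726), with upper-quartile scaling (adjusted p = 0.0608) and with the foregut marker covariate (adjusted p = 0.205). A gene was called where the quasi-likelihood test of edgeR gave a Benjamini-Hochberg adjusted p of at most 0.05 over all 17163 genes. Fold changes are Tbx20EH1Mut over WT on the log2 scale, with n = 4 libraries a genotype.

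Of the 10 cushion genes, Snai2 and Tgfbr3 rose, Msx1 and Postn fell, and 6 did not pass the test. The 2 called higher compare with 14% of all genes tested called higher, and the 2 called lower with 15.3% called lower. With a minimum size added, a log2 fold change of 0.5 or more either way, the calls left were Snai2, Msx1 and Postn, beside 24.6% of all genes. The libraries of the genotypes did not overlap for 4 of the 10, the same 4 that were called, and for 30.5% of all genes. The number of cushion genes called was therefore close to what a gene of these hearts shows in general, and their median log2 fold change was -0.12, against 0.00 over all genes tested.

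**Figure D1:**
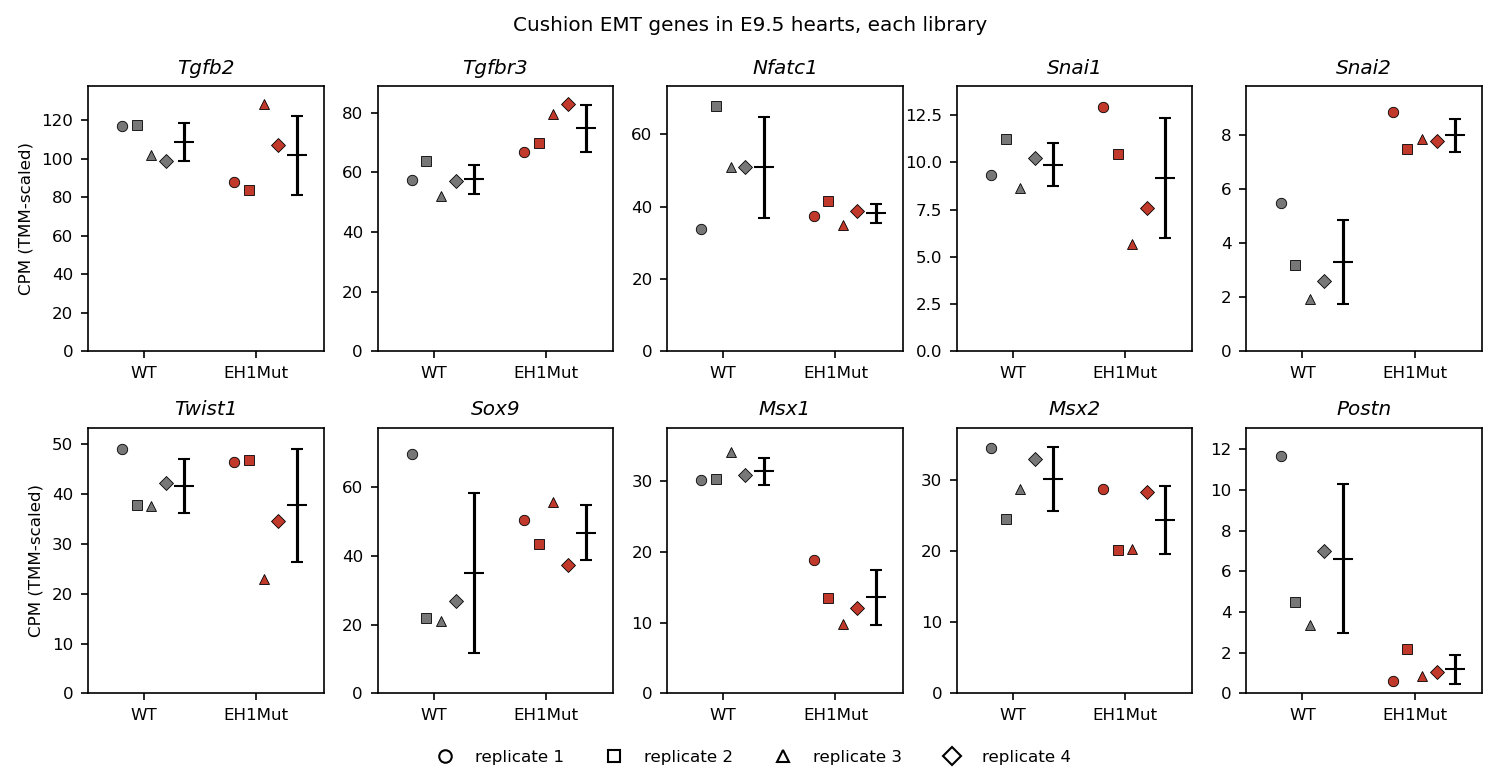
Level of each cushion gene (y axis, TMM-scaled CPM, linear from 0) in the 4 WT (grey) and 4 Tbx20EH1Mut (red, EH1Mut) libraries, with the marker shape giving the replicate number and the bar the mean ± SD. Snai2 and Tgfbr3 lie higher, and Msx1 and Postn lower, in all mutant libraries than in any WT library, and WT replicate 1 stands far above the other WT libraries for Sox9 at 69.7 CPM.

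Tgfb2 (ENSMUSG00000039239, chr1:186622792-186705989, minus strand of GRCm38) encodes the TGFβ ligand of the cushion-forming myocardium and endocardium. It was at 117, 117, 102 and 98.8 CPM in WT replicates 1 to 4 and at 87.9, 83.5, 129 and 107 CPM in the mutant libraries. Mutant replicate 3 was the highest of all 8 libraries and mutant replicates 1 and 2 were the lowest, so the genotypes overlapped (log2 fold change -0.10 ± 0.15, 95% interval -0.43 to 0.23, adjusted p = 0.645).

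Tgfbr3 (ENSMUSG00000029287, chr5:107106570-107289629, minus strand) encodes betaglycan, the coreceptor that presents TGFβ2 to its signalling receptors. Its WT libraries read 57.5, 63.9, 52.0 and 57.2 CPM and its mutant libraries 66.7, 69.7, 79.7 and 83.0 CPM. All mutant libraries were above all WT libraries, by a narrow gap between WT replicate 2 and mutant replicate 1. The mean rose from 57.7 ± 4.88 to 74.8 ± 7.81 CPM (SD), a log2 fold change of 0.37 ± 0.11 (95% interval 0.13 to 0.62, adjusted p = 0.0314). This was the call that depended most on single libraries: the adjusted p was 0.107 without WT replicate 3, 0.0919 without WT replicate 4, 0.0560 without mutant replicate 3 and 0.101 without mutant replicate 4. It was also lost with library size alone (0.0664), with no filter beyond 1 count (0.0654), with the replicate block (0.0778) and with the foregut covariate (0.237), at log2 fold changes of 0.31, 0.36, 0.37 and 0.28. A short stretch of exon is shared with a neighbouring gene in both ligand and coreceptor, and the neighbours held 96 and 21 counts over all libraries against 33950 for Tgfb2 and 21150 for Tgfbr3.

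Nfatc1 (ENSMUSG00000033016) encodes the calcineurin-dependent factor that marks endocardium and is required for valve formation. WT libraries spanned 33.8, 67.9, 50.9 and 51.0 CPM, and mutant libraries 37.3, 41.5, 34.9 and 38.9 CPM. WT replicates 2 to 4 lay above every mutant library, while WT replicate 1 was the lowest of all 8. The log2 fold change was -0.42 ± 0.18 (95% interval -0.82 to -0.01), and the adjusted p of 0.107 missed the threshold. Without WT replicate 1 the log2 fold change was -0.57 with an adjusted p of 0.00958, and without WT replicate 2 it was -0.23 with an adjusted p of 0.274.

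The Snail paralogs Snai1 and Snai2 encode zinc finger repressors of cadherin genes. Within their coding sequences, reads of the paralogs can be told apart. The longest run of identical bases shared there is 22 bases, short against reads of 150 bases. It begins at the first base of both coding sequences (GENCODE M21 transcripts, GRCm38). Exon outside the coding sequences was not compared. The run is shown because the comparison of the paralogs rests on their reads being separable.
Snai1 and Snai2 shared run: atgccgcgctccttcctggtca

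Snai2 (ENSMUSG00000022676, chr16:14705852-14709395, plus strand) stood at 5.49, 3.20, 1.93 and 2.60 CPM in WT and at 8.86, 7.46, 7.85 and 7.77 CPM in Tbx20EH1Mut hearts. The 4 mutant libraries were close together, and all were above the highest WT library, replicate 1. The mean was 2.42-fold higher (3.30 ± 1.55 against 7.98 ± 0.606 CPM), a log2 fold change of 1.28 ± 0.29 (95% interval 0.63 to 1.93, adjusted p = 0.0106). Leaving out each library in turn kept the call in all 8 fits, with log2 fold changes of 1.08 to 1.63 and adjusted p of 0.00108 to 0.0394. With the mean level of the foregut epithelium markers as a covariate the log2 fold change was 1.22 and the adjusted p 0.0908.

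Snai1 (ENSMUSG00000042821, chr2:167538195-167542814, plus strand), the Snail gene that acts first in most EMT, did not follow its paralog. It was at 9.35, 11.3, 8.63 and 10.2 CPM in WT and at 12.9, 10.5, 5.69 and 7.61 CPM in the mutant libraries. The mutant libraries enclosed the whole WT range, with mutant replicate 1 above it and mutant replicates 3 and 4 below it. The log2 fold change was -0.10 ± 0.24 (95% interval -0.64 to 0.43, adjusted p = 0.767), and it changed sign to 0.08 without mutant replicate 3.

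The log2 ratio of Snai2 to Snai1, which needs no scaling between libraries, was -0.77, -1.81, -2.15 and -1.97 in WT and -0.54, -0.49, 0.46 and 0.03 in the mutant libraries. In WT every library had fewer Snai2 than Snai1 counts, at linear ratios of 0.225 to 0.588, and 2 mutant libraries had more. The mean log2 ratio was higher by 1.54 in Tbx20EH1Mut hearts (p = 0.0286 by a two-sided exact permutation test, which cannot go lower with 70 arrangements; adjusted p = 0.0429 over the 12 ratios examined). With any 1 library left out the adjusted p was 0.0571 to 0.0857, a value that also depends on the other ratios. The difference was then 1.34 to 1.85.

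Twist1 (ENSMUSG00000035799, chr12:33957671-33959817, plus strand) encodes a basic helix-loop-helix factor that keeps cushion mesenchyme proliferating and migrating. Its levels were 49.2, 37.9, 37.6 and 42.2 CPM in WT and 46.6, 46.8, 23.0 and 34.7 CPM in the mutant libraries. Mutant replicates 1 and 2 lay inside the WT range and replicates 3 and 4 below it (log2 fold change -0.14 ± 0.21, 95% interval -0.61 to 0.32, adjusted p = 0.635). As for Snai1, the sign turned without mutant replicate 3, to 0.04.

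Sox9 (ENSMUSG00000000567, chr11:112782224-112787760, plus strand) encodes the HMG-box factor required for expansion of cushion mesenchyme. It was at 69.7, 22.0, 21.1 and 27.01 CPM in WT and at 50.5, 43.7, 55.7 and 37.6 CPM in the mutant libraries. WT replicate 1 was the highest of all 8, and the other WT libraries were below every mutant library. Over all libraries the log2 fold change was 0.43 ± 0.35 (95% interval -0.36 to 1.21, adjusted p = 0.383), and without WT replicate 1 it was 0.998 with an adjusted p of 0.00221. The same library had the highest Postn, Snai2, Twist1 and Msx2 and the lowest Nfatc1 of the WT libraries, and the highest summed level of epicardial markers, at 177 CPM against 58.6 to 83.3 CPM in the other WT libraries. Whether these epicardial markers account for its Sox9 level was not tested.

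The homeobox genes Msx1 and Msx2 are induced by BMP and are jointly required for atrioventricular cushion EMT. Their coding sequences also share no identical run longer than 22 bases, shown here for the same reason as that of the Snail paralogs; it starts at base 560 of the Msx1 and base 470 of the Msx2 coding sequence.
Msx1 and Msx2 shared run: tggagcgcaagttccgccagaa

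Msx1 (ENSMUSG00000048450, chr5:37820485-37824583, minus strand) was at 30.1, 30.3, 34.1 and 30.9 CPM in WT and at 18.9, 13.5, 9.81 and 12.01 CPM in the mutant libraries. The WT libraries agreed closely and all mutant libraries were far below them. The WT mean of 31.3 ± 1.86 CPM was 2.31-fold that of the mutant libraries, 13.5 ± 3.85 CPM, a log2 fold change of -1.21 ± 0.18 (95% interval -1.62 to -0.80, adjusted p = 0.00159). Every fit that left out a library kept the call, at log2 fold changes of -1.40 to -1.08.

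Msx2 (ENSMUSG00000021469, chr13:53466884-53473074, minus strand) read 34.5, 24.5, 28.8 and 32.9 CPM in WT and 28.7, 20.2, 20.3 and 28.3 CPM in the mutant libraries. Mutant replicates 2 and 3 were the lowest and the others lay within the WT range (log2 fold change -0.31 ± 0.16, 95% interval -0.67 to 0.06, adjusted p = 0.179). The log2 ratio of Msx1 to Msx2 was -0.20, 0.31, 0.24 and -0.09 in WT and -0.61, -0.58, -1.05 and -1.24 in Tbx20EH1Mut. All mutant ratios were below all WT ratios, and the mean fell by 0.93 (exact two-sided permutation test, p = 0.0286, adjusted p = 0.0429, with 0.0490 to 0.0857 when any 1 library was left out).

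Postn (ENSMUSG00000027750, chr3:54361109-54391037, plus strand) encodes periostin, a matrix protein of cushion mesenchyme that promotes its fibrous maturation. Per kilobase of exon it was the lowest of the members in both genotypes. Its level was 11.7, 4.48, 3.37 and 7.03 CPM in WT and 0.596, 2.20, 0.875 and 1.03 CPM in the mutant libraries. All mutant libraries were below the lowest WT library, and the WT libraries themselves differed several-fold. The WT mean was 5.63-fold higher (6.63 ± 3.68 against 1.18 ± 0.708 CPM), a log2 fold change of -2.49 ± 0.49 (95% interval -3.57 to -1.40, adjusted p = 0.00521), and the call held in each of the 8 fits without 1 library (log2 fold change -2.99 to -2.07).

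**Figure D2:**
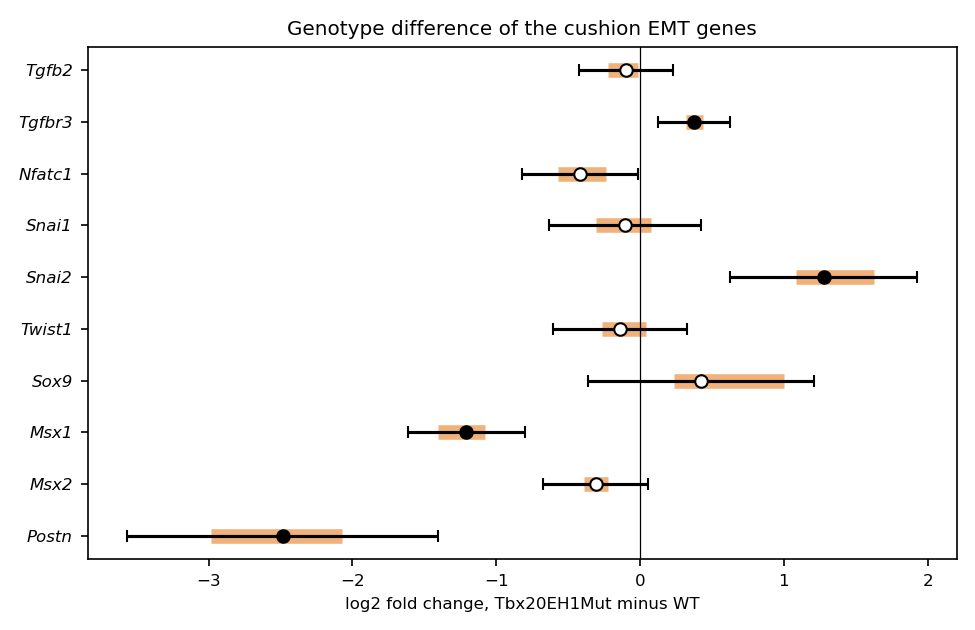
Log2 fold change of each cushion gene, Tbx20EH1Mut minus WT (x axis), with its 95% interval (line); filled points passed an adjusted p of 0.05, open points did not, and the orange band spans the values with each library left out in turn. Postn at -2.49 and Msx1 at -1.21 lie below 0 and Snai2 at 1.28 above it with bands that stay clear of 0, whereas the bands of Snai1 and Twist1 cross it.

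The 250 bases upstream of the start sites of Msx1 and Postn, the genes that fell, are shown from the RefSeq promoter table (GRCm38.p6), which held 6 of the 10 cushion genes. Capitals mark matches, on either strand, to any of 3 motifs chosen with the results in view: AGGTGTGA (T-box), CAGGTG (the E-box read by Snail factors, CACCTG on the other strand) and GCCGNCGC (a BMP SMAD motif).
Msx1, minus strand, chr5:37824586-37824835: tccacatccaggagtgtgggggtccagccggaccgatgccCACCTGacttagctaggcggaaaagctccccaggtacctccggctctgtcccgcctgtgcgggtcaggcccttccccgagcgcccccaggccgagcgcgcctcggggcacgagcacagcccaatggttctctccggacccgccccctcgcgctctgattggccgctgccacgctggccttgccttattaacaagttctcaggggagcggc
Postn, plus strand, chr3:54360857-54361106: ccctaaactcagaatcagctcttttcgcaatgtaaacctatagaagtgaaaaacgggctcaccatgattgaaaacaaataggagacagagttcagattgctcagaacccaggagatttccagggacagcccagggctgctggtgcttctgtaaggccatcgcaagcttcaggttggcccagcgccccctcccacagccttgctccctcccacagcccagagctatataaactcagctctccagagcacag

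In the Msx1 window 1 E-box begins 210 bases upstream of the start site, and the Postn window holds none of the 3 motifs, nor does the window of the other Postn start site in the table. Among the members that did not pass the test, the Snai1 window holds an E-box 126 bases and a SMAD match 97 bases upstream and the Msx2 window a SMAD match 87 bases upstream, although all 250 bases of that window are exon in the GENCODE M21 model of Msx2, while those of Tgfb2 and Twist1 hold none. Of all 32851 promoter windows of this length, 17.2% held the E-box letters, 1.12% the T-box letters and 6.89% the SMAD letters. These matches describe letters in a window and say nothing of binding.

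Per kilobase of exon, so that genes can be set beside each other, the order of mean levels in WT was Twist1 at 25.8 ± 3.34 CPM per kb (SD, n = 4), Tgfb2 at 18.8 ± 1.69, Msx1 at 10.1 ± 0.601, Msx2 at 9.20 ± 1.37, Tgfbr3 at 8.81 ± 0.746, Sox9 at 8.46 ± 5.63, Nfatc1 at 6.85 ± 1.87, Snai1 at 6.09 ± 0.703, Snai2 at 1.63 ± 0.762 and Postn at 0.762 ± 0.423. Twist1 was apart from Tgfb2, Tgfb2 from Msx1 and Snai1 from Snai2, since the libraries of these neighbours did not overlap, and the other neighbours overlapped. In the mutant libraries Msx1 was at place 8 of the 10, against 3 in WT, at 4.37 ± 1.24 CPM per kb, between Nfatc1 at 5.13 ± 0.369 and Snai2 at 3.93 ± 0.299. Its mutant libraries, at 3.17 to 6.09 CPM per kb, overlapped those of both of these neighbours, so that place is not a separate one. Tgfbr3 at 11.4 ± 1.19 and Sox9 at 11.3 ± 1.92 took places 3 and 4, with overlapping libraries, and Postn stayed last at 0.135 ± 0.0814.

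Among the 45 pairs of cushion genes, Sox9 and Snai2 varied most alike once the mean of each genotype was removed (Pearson's r = 0.86, Spearman's rho = 0.64, over 8 libraries), followed by Msx1 and Snai1 (r = 0.85, rho = 0.74). Sox9 and Nfatc1 were the most opposed pair (r = -0.88, rho = -0.71). The points share library, depth and scaling. Leaving out the 2 libraries farthest from the median of Sox9, Msx1 and Sox9 in turn brought the pairs to r = 0.15, 0.09 and -0.83. That cut removes the extremes of 1 gene and so narrows its range, which lowers r in itself. Without WT replicate 1 alone, the pairs in the same order had r = 0.54, 0.85 and -0.65.

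Because cushion cells descend from endocardium, each member was also set against 10 endothelial and endocardial markers. The mean log2 CPM of those markers was 6.33 ± 0.03 in WT and 6.76 ± 0.08 in Tbx20EH1Mut, a difference of 0.43 by which every member's ratio is lowered. On this scale Postn (-2.91), Msx1 (-1.67), Nfatc1 (-0.80), Msx2 (-0.74), Twist1 (-0.62) and Tgfb2 (-0.54) were lower in the mutant libraries, each with p = 0.0286 and adjusted p = 0.0429 by the exact two-sided permutation test. With 1 library left out, Nfatc1 missed the threshold in every fit (adjusted p 0.0571 to 0.0857). The other 5 passed only without mutant replicate 1 (0.0490). Their adjusted p was up to 0.0857 for Postn and Msx1, 0.0980 for Msx2 and Tgfb2 and 0.190 for Twist1. Fewer libraries leave fewer arrangements, and the adjustment depends on how many other ratios reach the smallest p. A call lost in this way cannot by itself be read as instability of that gene. All 6 differences stayed negative in these fits, at -3.29 to -2.58 for Postn, -0.97 to -0.66 for Nfatc1 and -0.76 to -0.38 for Twist1. Snai2 was 0.95 higher, with the mutant libraries overlapping WT replicate 1 (exact permutation p = 0.0857, adjusted p = 0.114). Tgfbr3 differed by -0.05 (adjusted p = 0.499), Sox9 by 0.17 (0.771) and Snai1 by -0.59 (0.137) in the same exact test. Snai1 also passed that test without mutant replicate 1, at -0.80 (adjusted p = 0.0490), and its adjusted p with other libraries left out was up to 0.309. Against Pecam1 and Cdh5 alone, none of the 6 lower ratios passed: their adjusted p ranged from 0.0686 for Postn and Msx1 to 0.274 for Twist1. The exact test cannot give a p below 0.0286, and the adjustment depends on how many other ratios reach it. For Postn and Msx1 the miss therefore cannot tell whether the result depends on the markers chosen. All 6 differences stayed negative, from -2.69 for Postn and -1.45 for Msx1 to -0.32 for Tgfb2.

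**Figure D3:**
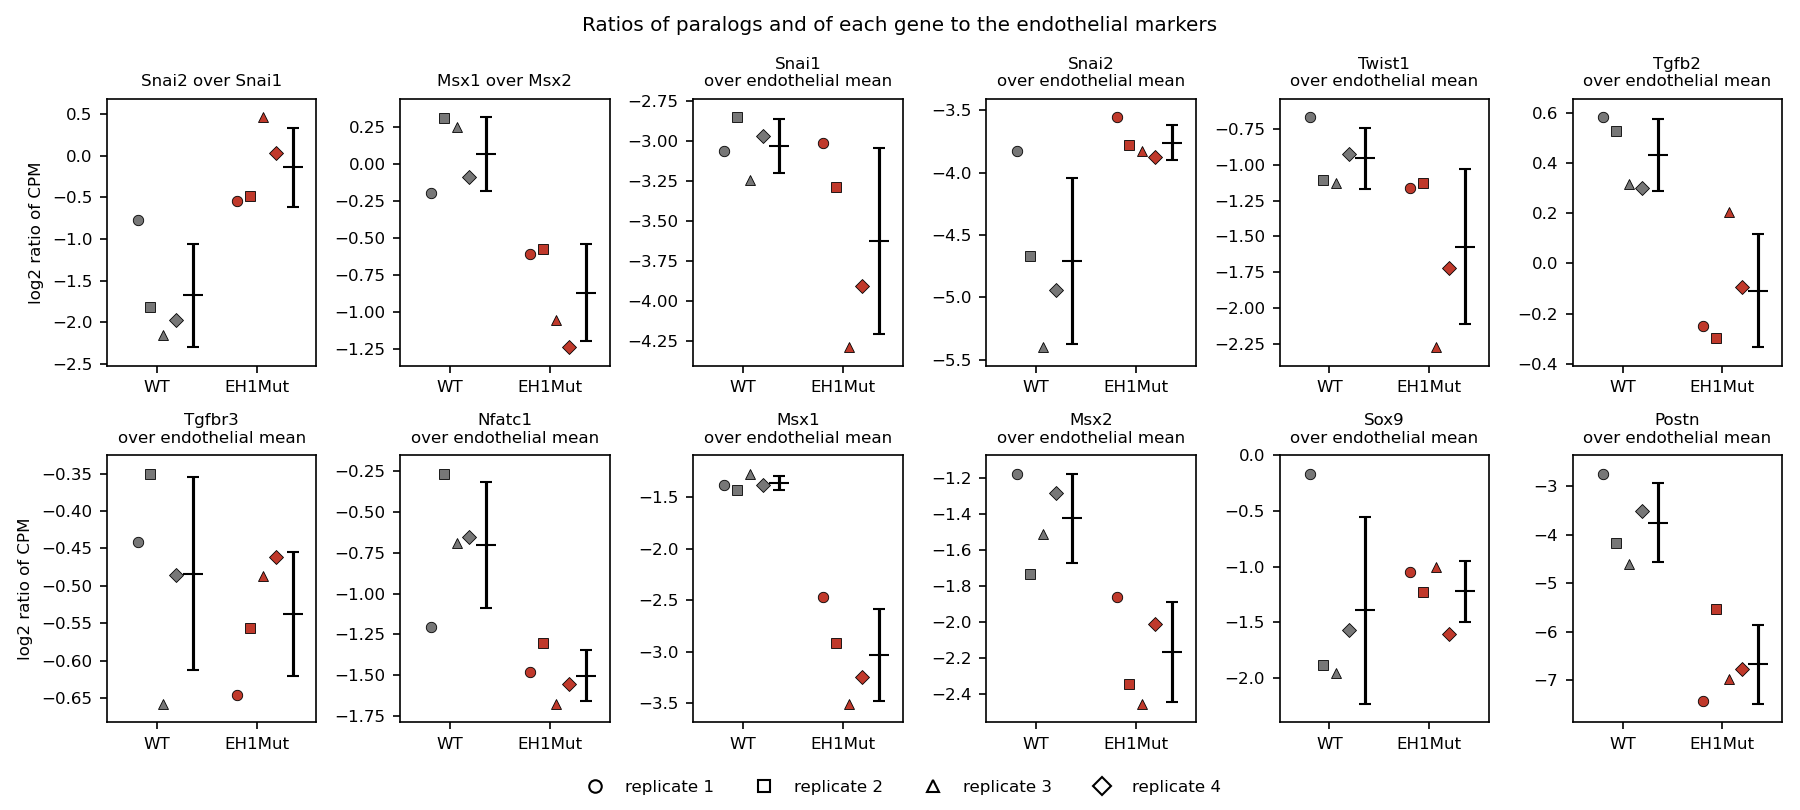
Log2 ratios of CPM (y axes, each with its own range) in each WT (grey) and Tbx20EH1Mut (red, EH1Mut) library, with mean ± SD: the paralog ratios, then each cushion gene over the mean of the 10 endothelial markers. Snai2 over Snai1 is higher by 1.54 and Msx1 over Msx2 lower by 0.93 in the mutant libraries, and Msx1 over the endothelial mean shows the tightest WT group, -1.36 ± 0.07.

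The other genes of the pathway were read in 7 lists holding 91 genes, all of them tested: 23 rose (25.3%, beside 14% of all genes), 12 fell (13.2%, beside 15.3% of all genes) and 56 did not pass. Among the 10 genes of the cushion inducing ligand list, which also holds Vegfa, 2 rose and 2 fell (median log2 fold change -0.31). Bmp2, the myocardial ligand that starts cushion EMT, had a mean of 60.0 ± 7.27 CPM in WT and of 25.1 ± 6.59 CPM in the mutant libraries and fell (log2 fold change -1.26 ± 0.18, adjusted p = 0.00132). Its libraries held 62.2, 52.1, 69.0 and 56.7 CPM in WT, and 18.0, 25.5, 33.8 and 23.2 CPM in the mutant libraries. Vegfa, which at high levels is known to hold endocardial cells back from the transition, rose from 128 ± 7.97 to 339 ± 69.8 CPM (1.40 ± 0.16, adjusted p = 0.000378). Neither overlapped between genotypes.

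The counts of the next lists stand against the same shares over all genes, 14% called higher and 15.3% called lower. Among 16 receptors and SMADs 4 rose and 2 fell (median 0.21). Tgfbr2, the type II receptor that binds TGFβ, was at 17.2 ± 2.71 CPM in WT and rose to 30.3 ± 3.71 CPM (0.82 ± 0.14 on the log2 scale, adjusted p = 0.00327), and Smad4, the common SMAD of both TGFβ and BMP signals, rose by 0.59 ± 0.13 (adjusted p = 0.00842). Of 10 Notch pathway genes 3 rose and none fell by edgeR (median 0.22), and 1 was called lower by DESeq2. The rises were led by the target repressors Hes1 (1.09 ± 0.20, adjusted p = 0.00364) and Hey1 (0.97 ± 0.14, adjusted p = 0.00125). The receptor gene Notch1 was the 1 lower at an unadjusted edgeR p under 0.05. It stood at 35.3 ± 18.3 CPM in WT and 19.6 ± 4.15 CPM in the mutant libraries, which overlapped (-0.85 ± 0.31, adjusted p = 0.0642). Of 8 calcineurin and NFAT genes 4 rose and 1 fell (median 0.22). Nfatc4, a relative of Nfatc1, rose from 19.5 ± 2.55 to 58.3 ± 7.04 CPM (1.58 ± 0.13, adjusted p = 7.55e-05), and Ppp3ca, a catalytic subunit of calcineurin, by 1.03 ± 0.24 (adjusted p = 0.0123).

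Of 18 other transcription factors of EMT and cushions 7 rose and 1 fell (median 0.21), again beside 14% and 15.3% of all genes. Id1, a BMP target that restrains helix-loop-helix factors, rose by 1.15 ± 0.18 (adjusted p = 0.00206). Twist2, the paralog of Twist1, rose by 0.96 ± 0.31 (adjusted p = 0.0431), with overlapping libraries and a call lost when single libraries were left out (adjusted p up to 0.118). Among 13 junction and cytoskeleton genes 3 rose and 1 fell (median 0.19), led by the endothelial tight junction gene Cldn5 (1.91 ± 0.22, adjusted p = 0.000374) and the adhesion gene Esam (0.78 ± 0.14, adjusted p = 0.00310). The third was Pecam1, also endothelial; Esam, Pecam1 and Cdh5 are among the 10 endothelial markers as well, so the counts of both lists share them.

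In the matrix list 5 of 16 genes fell, 11 did not pass and none was called higher by edgeR (median -0.37), with 1 gene higher at an unadjusted p under 0.05 and 1 called higher by DESeq2. Over all genes, 15.3% were called lower and 14% higher. Fbln2, a matrix glycoprotein of the cushions, was at 29.7, 18.8, 12.6 and 19.0 CPM in WT and 7.43, 8.82, 3.75 and 8.11 CPM in the mutant libraries, which did not overlap (-1.51 ± 0.31, adjusted p = 0.00624). Col2a1, a fibrillar collagen, fell from 687 ± 271 to 281 ± 25.1 CPM (-1.29 ± 0.24, adjusted p = 0.00453).

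**Figure D4:**
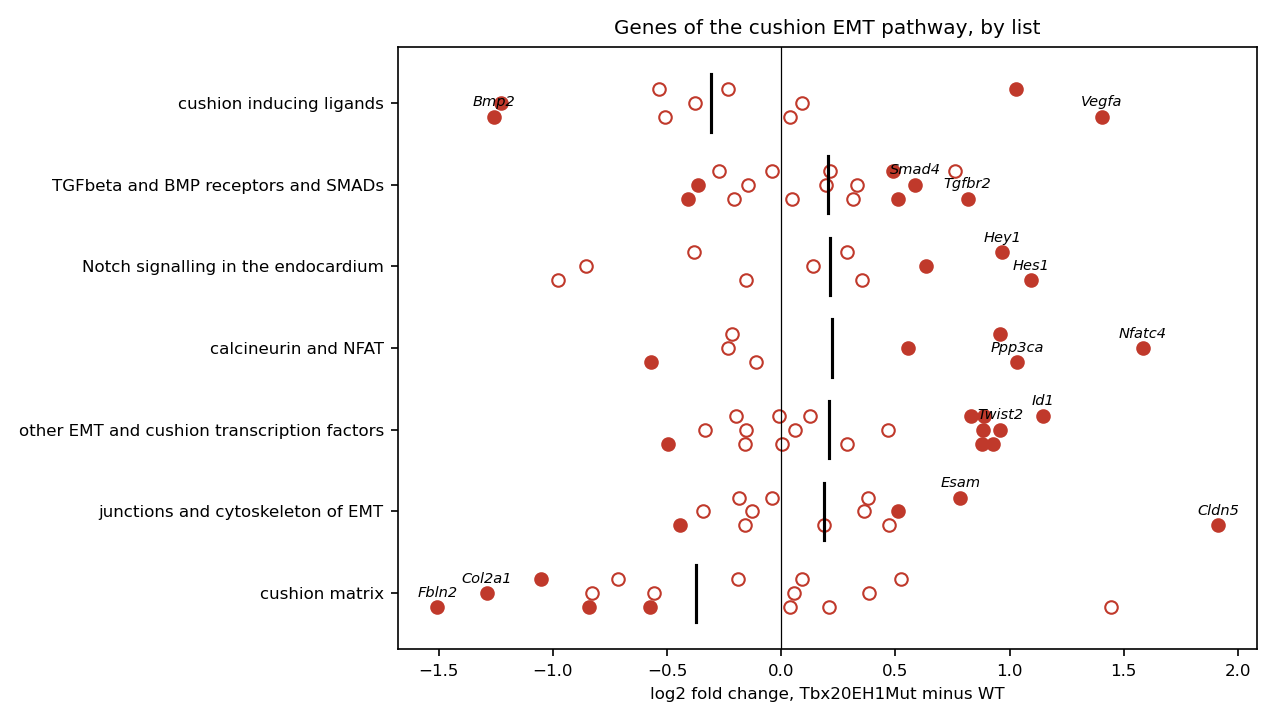
Log2 fold change, Tbx20EH1Mut minus WT (x axis), of each gene in the 7 pathway lists; filled points passed an adjusted p of 0.05, open points did not, the vertical bars are list medians, and the 2 called genes of largest change in each list are named. The matrix list has filled points only below 0, with Fbln2 at -1.51, and the Notch list only above 0, with Hes1 at 1.09.

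Markers of the cell types in and around the heart moved with genotype as well. The counts of called markers likewise stand beside 14% of all genes called higher and 15.3% called lower. Marker genes named here are the 3 of highest mean level over all 8 libraries, so a gene that rose can lead its list without doing so in WT. Of the 10 endothelial markers, with Egfl7, Kdr and Tie1 the highest (in WT alone Tie1, Cdh5 and Egfl7), 6 rose and none fell (0 lower at an unadjusted p under 0.05, and 0 by DESeq2 or limma-voom), and their summed level was 818 to 943 CPM in WT and 1113 to 1227 CPM in the mutant libraries. None of 10 cardiomyocyte markers, with Actc1, Myl4 and Myl7 the highest (in WT alone Actc1, Myl4 and Myh7), passed the edgeR test (31984 to 40833 against 32061 to 46757 CPM), with 2 lower at an unadjusted p under 0.05, 2 called lower by DESeq2 and 0 called by limma-voom. Of 10 foregut epithelium markers, with Krt8, Krt18 and Epcam the highest (in WT alone Krt8, Krt18 and Cldn6), 5 rose, and their sum was 190 to 295 CPM in WT and 655 to 892 CPM in Tbx20EH1Mut. Krt8 and Krt18 made up most of it: the other 8 markers summed to 1.16 to 61.5 CPM in WT and 32.7 to 206 CPM in the mutant libraries, which overlapped. Of 10 markers of the neural crest, a tissue that also expresses Msx1, Sox9, Snai2 and Twist1, 8 were tested and 2 rose, and the summed level was low in both genotypes (14.1 to 26.7 against 19.0 to 46.7 CPM), with Sox10, Foxd3, Tfap2b and Dlx1 at 0 in at least 1 library.

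Of 6 epicardial markers, with Wt1, Tbx18 and Upk3b the highest, 2 rose (58.6 to 177 against 128 to 165 CPM). Of 8 somite markers, with Pax1, Meox1 and Tcf15 the highest, 4 were tested and 1 rose (1.69 to 11.0 against 3.69 to 24.0 CPM). All 7 erythroid markers, with Hbb-y, Hba-x and Hbb-bh1 the highest, fell (1855 to 4941 against 352 to 1097 CPM). With the foregut marker mean as a covariate, Msx1 and Postn were still called lower and Nfatc1 was called lower too (adjusted p = 0.0213), while Snai2 (log2 fold change 1.22, against 1.28 without the covariate) and Tgfbr3 (0.28 against 0.37, adjusted p = 0.237) lost the call. That covariate itself followed genotype in part (r2 = 0.636). With the neural crest mean, the 4 calls held, and Nfatc1 (adjusted p = 0.0472) and Snai1 (adjusted p = 0.0417) were called lower in addition. The endothelial mean was nearly the genotype itself (r2 = 0.948 with genotype), so its part cannot be told apart.

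**Figure D5:**
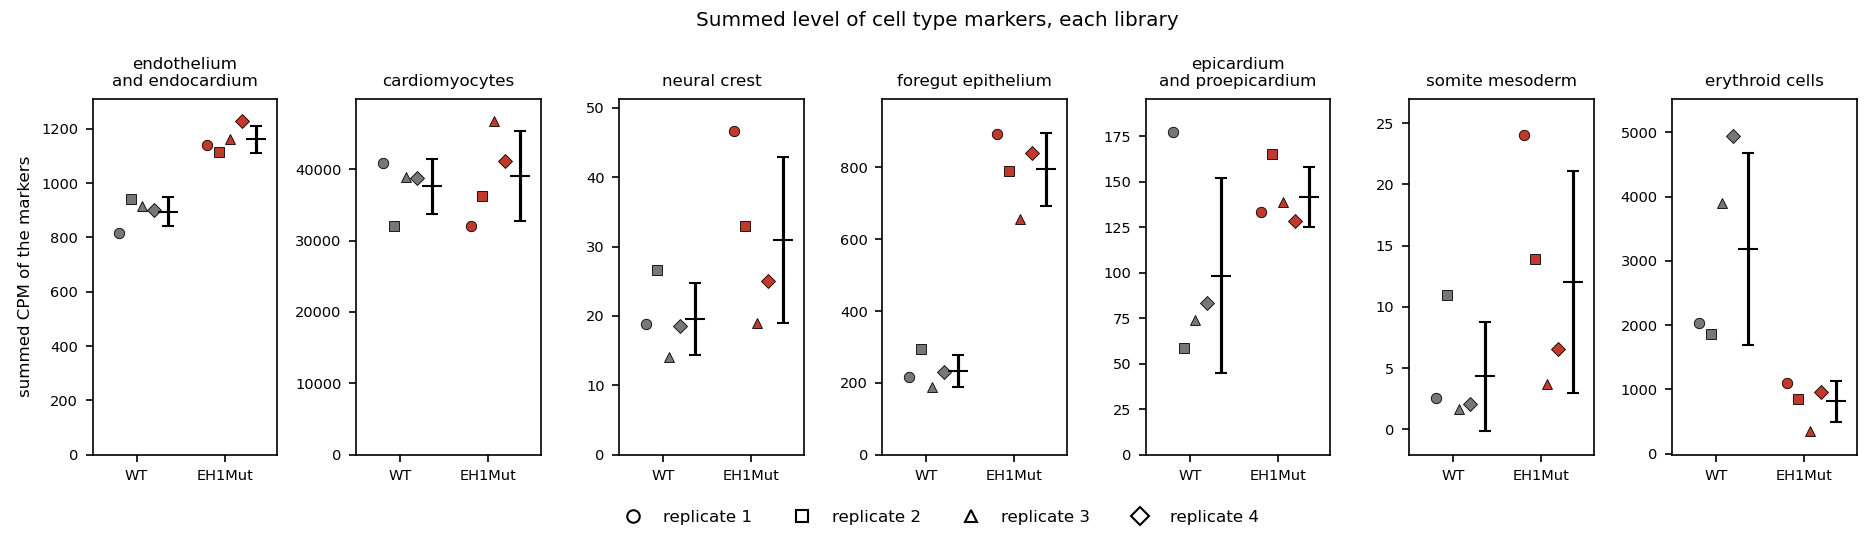
Summed CPM of each cell type's marker list (y axes, linear, each with its own range) in the WT (grey) and Tbx20EH1Mut (red, EH1Mut) libraries, with mean ± SD and marker shapes for replicates. Endothelial and foregut sums are higher and erythroid sums lower in every mutant library, and WT replicate 1 has the highest epicardial sum of all libraries, at 177 CPM. The foregut separation comes through Krt8 and Krt18, since the sums of the other 8 foregut markers overlap.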

How the data were processed

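The deposited files hold raw gene counts, 1 table a library. Libraries were poly-A selected and read from both ends, and the submitters' processing notes name Trimmomatic 0.36, STAR 2.5.2b, GRCm38 and mm10. The counting tool and its strand setting are not given in the sources used here, so reads of overlapping genes may not be separated. Symbols came from GENCODE M21, in which 91.4% of 48970 matched genes had the same start and end as in the deposited tables.

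Counts were tested with edgeR 4.0.16 (R 4.3.3): filterByExpr, TMM, the quasi-likelihood test with genotype as the only term, and Benjamini-Hochberg adjustment over 17163 genes. The study's methods name thresholds but no test. Log2 ratios used a prior count of 0.5 and an exact permutation test over 70 arrangements of 8 libraries. Counting precision is set by each gene's counts, and PCR duplicates were not removed here. The labels do not say that replicate hearts came from separate litters, so p-values measure the spread between these pools. DESeq2 1.42.0, limma-voom (limma 3.58.1), other scalings and filters, covariates, the replicate block and leaving out each library were tried as alternatives. The edgeR script was tested on simulated data.

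The members and gene lists were chosen with earlier results of these data known. By rule, all members are named with every library, the 2 called genes of largest change with a mean of at least 1 CPM in each pathway list, the 3 genes of highest level in each marker list except the neural crest list, where they are not reported here, and the most and least alike pairs of members.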

Additional observations from a re-analysis of the deposited data

Results flagged for a closer look

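One value stood far from its group: Sox9 in WT replicate 1, at 69.7 CPM, against 21.1 to 27.01 CPM in the other WT libraries. Its gap to the nearest of them was 0.879 of the group's range, above Dixon's 95% critical value for 4 samples. In all, 44 groups of 4 values were examined, and chance alone gives such a value in about 1 of 20 groups.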

How the results depend on the processing

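Msx1 and Postn were called lower in every alternative but the endothelial marker covariate, which is nearly collinear with genotype: there 0 genes, and 0 pathway list genes, were called (edgeR; 866 genes had an unadjusted p under 0.05), and log2 fold changes reversed for Postn (0.96), Snai1 (1.78), Twist1 (1.82), Tgfbr3 (-0.30), Fbln2 (0.32), Smad4 (-0.21) and Tgfbr2 (-0.17). Members called higher numbered 1 with library size alone, with no filter beyond 1 count and with the replicate block, and 0 with the foregut covariate, where Tgfb2 reversed to 0.011. Members called lower numbered 4 with the neural crest covariate. Leaving out single libraries gave 1 to 3 members called higher, 2 to 3 called lower, and 3001 to 6586 genes called, against 5024. Of these the fits without WT replicate 3 (3061), WT replicate 4 (3001) and mutant replicate 4 (3028) moved the count by over 1.5 times. Over these fits Snai1 ran from -0.31 to 0.075 and Twist1 from -0.26 to 0.041, both reversed without mutant replicate 3.

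Replicate numbers did not pair the libraries (same-number correlations -0.25, 0.32, 0.04 and 0.06). With the number as a block 3945 genes were called, Tgfbr3 lost its call (adjusted p = 0.0778) with its log2 fold change at 0.37 in both fits, and Snai2, Msx1 and Postn were still called. For the paralog ratios the blocked differences were 1.54 and -0.93, and an exact sign-flip test of 4 differences cannot give a p below 0.125.

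Leave-one-out differences ranged from 1.34 to 1.85 for Snai2 over Snai1, from -1.03 to -0.81 for Msx1 over Msx2, and relative to the endothelial markers from -3.29 to -2.58 for Postn, -1.86 to -1.52 for Msx1, -0.97 to -0.66 for Nfatc1, -0.84 to -0.65 for Msx2, -0.76 to -0.38 for Twist1, -0.64 to -0.48 for Tgfb2, -0.80 to -0.37 for Snai1 and -0.015 (reversed, without WT replicate 3) to 0.58 for Sox9. The adjusted p of these 7-library tests (35 arrangements) was 0.0490 or more, and up to 0.190 for the ratios that had passed with all libraries. It depends on how many other ratios reach the smallest p, so a lost call alone does not show that a ratio is unstable. Against Pecam1 and Cdh5 alone the differences were -2.69 for Postn, -1.45 for Msx1, -0.58 for Nfatc1, -0.52 for Msx2, -0.40 for Twist1, -0.32 for Tgfb2 and 0.17 for Tgfbr3, which reversed. The cause of these changes was not tested. Depth limits Postn most, with 23 counts in its lowest library.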
